A study of Mus musculus with 9 samples.

Results

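The genes described here handle osmotic balance and sodium in the cell: the transcription factor gene Nfat5, the chaperone gene Hspa4l, the carrier genes Slc6a6, Slc5a3 and Slc38a2, the kinase genes Sgk1 and Wnk1, and the ion transporter genes Slc12a2 and Slc8a1. They were chosen by symbol and make up 9 of the 35321 genes of an expression table in FPKM (fragment counts scaled to gene length and library depth). The table covered 9 tumour samples. The tumours had been grown under the skin from LLC cells, a mouse lung carcinoma line, in the right flank of male C57BL/6 mice that were 4 to 5 weeks old. Intraperitoneal treatment began 5 days after the cells were injected. The 3 groups of 3 samples received PBS (vehicle) or digoxin, at a low dose of 0.1 mg/kg or a high dose of 1 mg/kg, and all mice carried the same graft. The dosing schedule and the day the tumours were taken are not stated in the labels. Tumour tissue holds host cells beside LLC cells, and in such bulk samples fewer cells of a type and less RNA per cell cannot be told apart.

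The cardiac glycoside digoxin blocks the Na,K-ATPase, which pumps sodium out of the cell and potassium in. Cells that lose or gain water adjust their content of ions and of small organic solutes (osmolytes). In hypertonic medium NFAT5 moves to the nucleus and switches on genes for osmolyte carriers, osmolyte enzymes and chaperones, which hold cell volume without a lasting rise in salt. In cell shrinkage the WNK kinases activate, through the kinases SPAK and OSR1, the sodium-potassium-chloride cotransporter NKCC1, the product of Slc12a2. SGK1 is a kinase whose transcript answers to glucocorticoids, aldosterone and osmotic stress, and which raises the activity of many sodium transport proteins.

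Promoter windows of 250 bases before an annotated start were read for the members from RefSeq (build GRCm38.p6). Of the 9 genes, 7 had an entry, with 12 windows in all, 6 of which belonged to Sgk1. The windows below are shown because Nfat5 and Sgk1 changed in opposite directions, and of the 6 Sgk1 windows the pair with the most motif matches was taken. Capitals mark matches, on either strand, to the NFAT5 core motif TGGAAA, to a GC box (GGGCGG), to a TATA box (TATAAA) or to a glucocorticoid receptor palindrome (AGAACA and TGTTCT with 3 bases between them). The window of Nfat5 lies on the + strand at chr8:107293220-107293469, and those of Sgk1 on the + strand at chr10:21993640-21993889 (Sgk1 window A) and chr10:21994416-21994665 (Sgk1 window B). None of the 3 overlaps an annotated exon.
Nfat5: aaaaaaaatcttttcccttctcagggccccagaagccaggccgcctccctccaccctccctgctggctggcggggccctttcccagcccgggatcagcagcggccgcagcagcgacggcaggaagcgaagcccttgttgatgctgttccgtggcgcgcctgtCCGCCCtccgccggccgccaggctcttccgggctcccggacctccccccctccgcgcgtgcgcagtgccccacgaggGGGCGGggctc
Sgk1 window A: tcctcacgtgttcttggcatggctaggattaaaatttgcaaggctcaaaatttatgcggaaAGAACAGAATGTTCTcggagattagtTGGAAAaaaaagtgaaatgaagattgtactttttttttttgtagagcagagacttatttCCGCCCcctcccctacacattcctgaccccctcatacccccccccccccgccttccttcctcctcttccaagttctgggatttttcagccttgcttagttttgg
Sgk1 window B: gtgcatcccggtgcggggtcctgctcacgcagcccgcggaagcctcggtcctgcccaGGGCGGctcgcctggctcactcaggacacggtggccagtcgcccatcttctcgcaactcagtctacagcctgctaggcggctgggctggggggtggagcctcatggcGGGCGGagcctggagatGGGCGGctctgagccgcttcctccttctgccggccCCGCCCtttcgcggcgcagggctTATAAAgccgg

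The Nfat5 window held 2 GC boxes and no TGGAAA. Sgk1 window A held the palindrome at position -189 from the start, TGGAAA at -163 and a GC box at -104, and window B held 4 GC boxes and a TATA box at -11. The palindrome was added to the search after the Sgk1 sequence had been read, and it stood in 3 of 32851 mouse promoter windows of this length (0.00913%). Of the 4 Sgk1 windows not shown, that at chr10:21881934-21882183 held TGGAAA at -105, that at chr10:21991973-21992222 held TATAAA at -28, and the other two held no match. TGGAAA stood in 2 of the 12 member windows, both of Sgk1, and in 18.6% of all windows. A GC box stood in 7 of the 12 member windows and in 32.7% of all windows, and TATAAA in 2 of 12 and in 12.4%. An AP-1 site (TGAGTCA or TGACTCA, 4.46% of all windows), a cyclic AMP response element (TGACGTCA, 1.55%) and an amino acid response element (TGATGCAAT, 0.167%) had no match in the 12 windows. These are matches of letters, and binding was not measured.

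The depth behind the FPKM values, recovered from their spacing, ran from 48649867 to 51810956 fragments in the vehicle libraries, from 42870997 to 43319883 in the 0.1 mg/kg libraries and from 40517062 to 42252370 in the 1 mg/kg libraries. Across genes, which are not independent replicates, 0.1 mg/kg sample 2 correlated with the vehicle libraries at a mean Pearson r of 0.951 and 1 mg/kg sample 1 at 0.922, against 0.891 to 0.893 for the other digoxin libraries. These libraries are called the in-between libraries below, and calls and counts that change without them are given both ways. They were picked for their likeness to vehicle over all genes, so leaving them out tends to widen differences from vehicle and to favour calls. Single genes can go the other way. At 1 mg/kg the differences of Sgk1, Slc38a2, Slc5a3 and Slc12a2 shrank without these libraries, while those of Nfat5, Hspa4l, Slc6a6 and Wnk1 widened. With all libraries 5781 and 6277 of 13687 tested genes passed at the 2 doses (42.2% and 45.9%), and 8424 and 8392 without the in-between libraries. Between the doses 2 genes passed with all libraries and 465 without these. The marker counts below are to be read beside these shares. Of 8 fibroblast markers, 2 were higher and 4 lower at the lower dose, and 1 was higher and 5 lower at the higher dose (2 and 6 at the lower dose without the in-between libraries). Their summed FPKM was 1159 to 1278 in the vehicle samples, 367 to 815 in the lower dose group and 380 to 670 in the higher dose group, and the highest digoxin values, 815 and 670, were those of the in-between libraries. Of 8 neutrophil markers, 4 and 6 were higher and 0 lower at the 2 doses, with sums of 80.8 to 221, 140 to 804 and 513 to 1201. Of 9 tested skeletal muscle markers, 3 were higher and 0 lower at each dose (9 and 0 without the in-between libraries), with sums of 34.5 to 110, 163 to 337 and 53.7 to 1156. Of 10 macrophage markers, 5 were higher and 1 lower at the lower dose (7 and 1 without the in-between libraries), and 4 were higher and 3 lower at the higher dose, with sums of 2620 to 2938, 2688 to 4063 and 1862 to 3008. T cell markers (8, of which 6 were tested; 5 higher and 0 lower, then 1 and 1) summed to 9.42 to 10.9, 16.7 to 28.4 and 6.31 to 15.7 FPKM, B cell markers (5, 3 tested; 2 and 0 at each dose) to 1.59 to 2.15, 11.2 to 13.4 and 3.65 to 15.4, and the 8 endothelial markers, none of which passed at either dose, to 46.6 to 68.7, 39.3 to 59.1 and 24.5 to 74.2. With the in-between libraries left out, 1 endothelial marker was higher and 1 lower at the lower dose, and 4 were higher and 0 lower at the higher dose. Adipocyte and epidermis markers did not reach the expression filter, and no marker found in the table was at 0 in every library. The part of any cell type in the results below was not tested.

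Of the 9 members, 8 reached 1 FPKM in at least 3 samples and were tested. Against vehicle, 7 of the 8 differed at 0.1 mg/kg and the same 7 at 1 mg/kg: Sgk1 and Slc38a2 were higher, and Nfat5, Hspa4l, Slc6a6, Slc5a3 and Slc12a2 were lower. The test was limma on log2(FPKM + 1), with 1 fit of all 9 samples and Benjamini-Hochberg adjustment over all 13687 genes tested, and a gene was called at an adjusted p under 0.05. Large parts of the transcriptome were called in the same way. At 0.1 mg/kg 42.2% of the tested genes passed (21.6% higher, 20.7% lower), and at 1 mg/kg 45.9% passed (20.7% higher, 25.2% lower). The groups did not overlap for the same 7 members at each dose, against 60.2% and 58.3% of all tested genes. Both comparisons use the same 3 vehicle samples, so they are not independent of each other. Without both in-between libraries 8424 and 8392 of the 13687 genes passed at the 2 doses. In that fit the same 7 members passed at 0.1 mg/kg, and at 1 mg/kg Wnk1 passed and Slc5a3 did not. The count at 0.1 mg/kg was 4 without vehicle sample 2, without vehicle sample 3 or without 0.1 mg/kg sample 3. Whether each sample came from a mouse of its own is not stated in the labels, so p-values cover just the spread among these 9 samples, part of which may be technical.

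**Figure D1:**
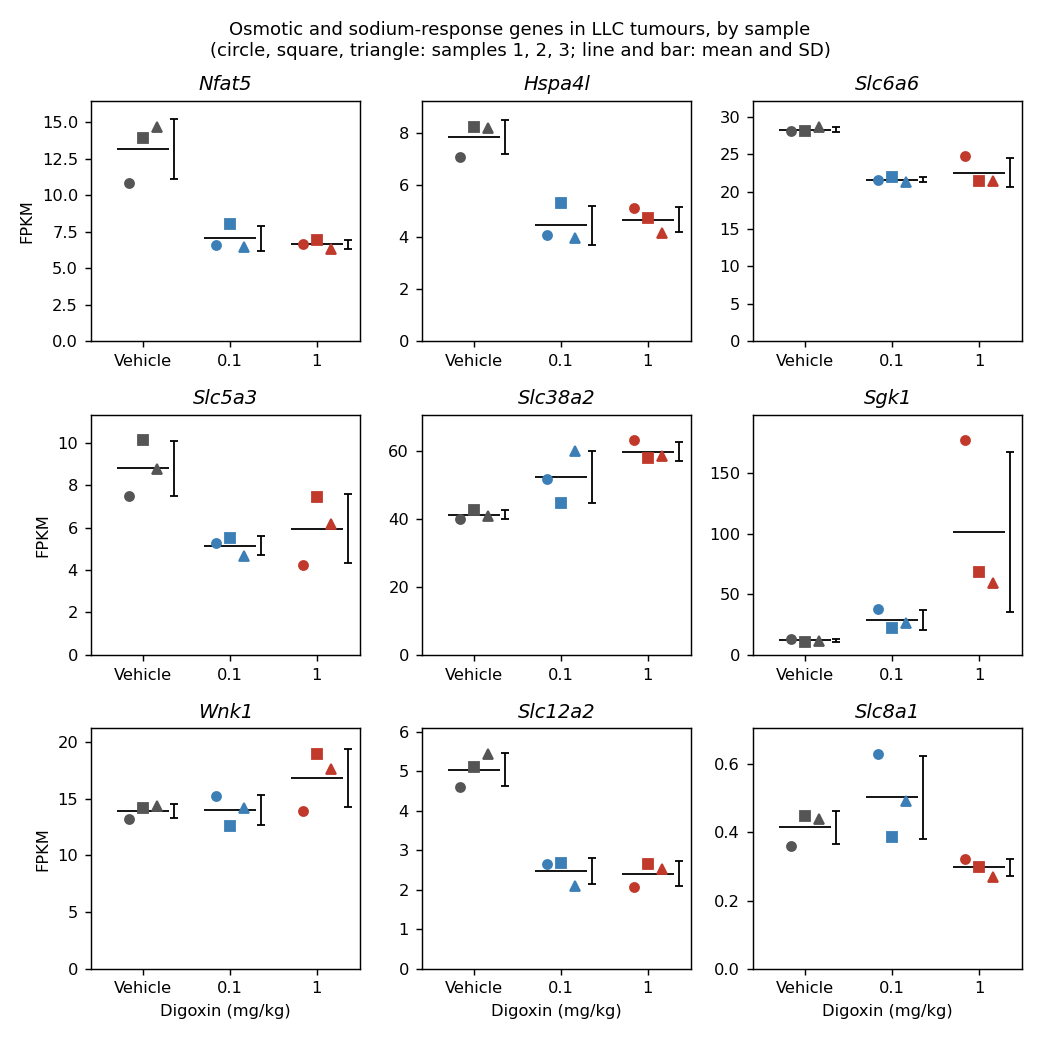
FPKM of each of the 9 genes (vertical axes, linear from 0, a scale of its own for each gene) by group (vehicle, digoxin at 0.1 and at 1 mg/kg), with circle, square and triangle for samples 1, 2 and 3 and the mean and SD of 3 samples beside them. Nfat5, Hspa4l, Slc6a6, Slc5a3 and Slc12a2 sit below the vehicle values at both doses, Slc38a2 and Sgk1 above them, and Sgk1 reaches 177 FPKM in 1 mg/kg sample 1.

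Nfat5, the transcription factor of the hypertonic response, was at 10.8, 13.9 and 14.7 FPKM in vehicle samples 1, 2 and 3. It was at 6.62, 8.03 and 6.46 FPKM at 0.1 mg/kg and at 6.69, 6.93 and 6.30 FPKM at 1 mg/kg. Every digoxin sample thus lay below every vehicle sample, and the digoxin groups overlapped each other. The group means were 13.2 ± 2.07, 7.04 ± 0.865 and 6.64 ± 0.321 FPKM (SD, n = 3), so that the digoxin means were 53.5% and 50.5% of the vehicle mean. Nfat5 fell by 0.81 on the log2(FPKM + 1) scale at 0.1 mg/kg (SE 0.12, limma adjusted p = 0.00215) and by 0.88 at 1 mg/kg (SE 0.12, limma adjusted p = 0.00129). Both calls held when any 1 library was left out. The highest digoxin value was that of 0.1 mg/kg sample 2, and without both in-between libraries the falls were 0.90 and 0.88. These levels rest on 4689 to 14004 recovered reads a sample, and a gene model without a function, Gm51546, overlaps Nfat5 in RefSeq.

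Hspa4l encodes a chaperone of the HSP110 family, which releases nucleotide from HSP70, and was first described as an osmotic stress protein. It was at 7.08, 8.25 and 8.20 FPKM with vehicle, at 4.07, 5.29 and 3.97 FPKM at 0.1 mg/kg and at 5.11, 4.75 and 4.14 FPKM at 1 mg/kg. The digoxin samples all lay below the vehicle samples, and the highest of them were the in-between libraries in the 0.1 mg/kg group and in the 1 mg/kg group. Mean levels were 7.84 ± 0.660, 4.44 ± 0.735 and 4.67 ± 0.489 FPKM (SD, n = 3). Hspa4l fell by 0.70 at 0.1 mg/kg (SE 0.12, limma adjusted p = 0.00309) and by 0.64 at 1 mg/kg (SE 0.12, limma adjusted p = 0.00359), and no library left out ended either call. Without both in-between libraries it fell by 0.81 and by 0.70.

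Both osmolyte carriers among the members, Slc6a6 and Slc5a3, fell at both doses, the second with calls that 1 library could end. Slc6a6 encodes the sodium- and chloride-coupled taurine carrier TauT, an NFAT5 target. Its level was 28.1, 28.1 and 28.7 FPKM with vehicle, 21.5, 21.9 and 21.2 FPKM at 0.1 mg/kg and 24.8, 21.4 and 21.5 FPKM at 1 mg/kg. The vehicle samples lay close together and above all digoxin samples, and the in-between library of the 1 mg/kg group was the nearest to them. The group means of 28.3 ± 0.348, 21.6 ± 0.353 and 22.5 ± 1.96 FPKM (SD, n = 3) put the digoxin levels at 76.3% and 79.7% of vehicle. Slc6a6 fell by 0.38 (SE 0.07, limma adjusted p = 0.00536) and by 0.32 (SE 0.07, limma adjusted p = 0.00888), the smallest falls among the 5 members that fell, and both calls held with any 1 library left out.

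Slc5a3 encodes SMIT1, the sodium-coupled carrier of myo-inositol. It stood at 7.49, 10.1 and 8.76 FPKM with vehicle, 5.29, 5.51 and 4.67 FPKM at 0.1 mg/kg, and 4.24, 7.45 and 6.17 FPKM at 1 mg/kg. The highest 1 mg/kg sample lay just under the lowest vehicle sample. With means of 8.79 ± 1.31, 5.15 ± 0.437 and 5.95 ± 1.61 FPKM (SD, n = 3), Slc5a3 fell by 0.66 at 0.1 mg/kg (SE 0.17, limma adjusted p = 0.0166) and by 0.51 at 1 mg/kg (SE 0.17, limma adjusted p = 0.0394). The call at 0.1 mg/kg was lost without vehicle sample 2, vehicle sample 3 or 0.1 mg/kg sample 3 (limma adjusted p up to 0.0649). The call at 1 mg/kg was lost in 6 of the 9 fits with 1 library left out (up to 0.133, without vehicle sample 2), and without 1 mg/kg sample 1 the difference was -0.32 (limma adjusted p = 0.0701). Slc5a3 overlaps Mrps6, a mitochondrial ribosomal protein gene, in RefSeq, and whether the read counting used strand is not stated in the labels. Mrps6 itself was at 22.8 ± 1.40, 24.2 ± 4.18 and 21.7 ± 2.84 FPKM, with differences from vehicle of 0.072 (limma adjusted p = 0.683) and -0.076 (0.661).

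Slc38a2 encodes SNAT2, a sodium-coupled carrier of small neutral amino acids that is induced by hypertonicity and by amino acid shortage. Its FPKM was 40.2, 42.8 and 40.9 in the vehicle samples, 51.9, 44.9 and 60.2 in those given 0.1 mg/kg and 63.2, 57.9 and 58.6 in those given 1 mg/kg. The digoxin samples all lay above the vehicle samples, the in-between library of the 0.1 mg/kg group only just. The means were 41.3 ± 1.37, 52.3 ± 7.68 and 59.9 ± 2.86 FPKM (SD, n = 3), or 127% and 145% of vehicle. Slc38a2 rose by 0.53 at 1 mg/kg (SE 0.10, limma adjusted p = 0.00469), which held with any 1 library left out. Its rise of 0.32 at 0.1 mg/kg (SE 0.10, limma adjusted p = 0.0341) was lost in 6 of the 9 such fits (up to 0.106, without 0.1 mg/kg sample 3) and after rescaling to TPM (0.22, limma adjusted p = 0.120), a scaling that moved the median of all tested genes from 0.018 to -0.089 at this dose and from -0.037 to -0.12 at 1 mg/kg. Without both in-between libraries the rise at 0.1 mg/kg was 0.43 (limma adjusted p = 0.00170).

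Sgk1, the serum- and glucocorticoid-regulated kinase gene, had the largest difference of all members. Its FPKM was 12.9, 11.0 and 11.8 in the vehicle samples, 37.6, 22.2 and 26.5 in those given 0.1 mg/kg, and 177, 68.2 and 59.1 in those given 1 mg/kg. The groups formed 3 levels without overlap, and 1 mg/kg sample 1 stood far above the other samples of its group. The mean rose from 11.9 ± 0.969 to 28.8 ± 7.91 and 101 ± 65.6 FPKM (SD, n = 3), ratios of 2.41 and 8.51 over vehicle. On the log2(FPKM + 1) scale Sgk1 rose by 1.17 at 0.1 mg/kg (SE 0.37, limma adjusted p = 0.0331) and by 2.81 at 1 mg/kg (SE 0.37, limma adjusted p = 0.00104). Without 1 mg/kg sample 1 the mean at that dose was 63.6 FPKM, a ratio of 5.34 over vehicle, and the rise was 2.32 (limma adjusted p = 0.000280). The call at 1 mg/kg held with any 1 library left out (adjusted p up to 0.00691), while that at 0.1 mg/kg was lost in 5 of the 9 fits (up to 0.110, without 0.1 mg/kg sample 1).

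In 1 mg/kg sample 1, where Sgk1 was the highest of the 9 samples, several marker sums stood apart from the rest of its group. Its neutrophil (513 FPKM), muscle (53.7), macrophage (1862), T cell (6.31), B cell (3.65) and endothelial (24.5) sums were the lowest of the group. Its fibroblast sum (670) was the highest of the group. Whether these sums bear on the Sgk1 level was not tested. Sgk1 rests on 2702 to 36664 recovered reads a sample, so that counting error alone was 0.52% to 1.92%. The predicted genes Gm18511 and Gm46215 overlap it in RefSeq.

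Wnk1 encodes the chloride-sensing kinase at the head of the WNK pathway. Its level was 13.2, 14.2 and 14.3 FPKM with vehicle, 15.3, 12.6 and 14.2 FPKM at 0.1 mg/kg and 14.0, 18.9 and 17.6 FPKM at 1 mg/kg. The 0.1 mg/kg samples spanned the vehicle range, and 2 of the 3 samples at 1 mg/kg lay above it. Wnk1 was the only tested member that passed at neither dose. Its difference was 0.0044 at 0.1 mg/kg (95% interval -0.26 to 0.27, limma adjusted p = 0.980) and 0.25 at 1 mg/kg (95% interval -0.019 to 0.51, limma adjusted p = 0.114), from means of 13.9 ± 0.606, 14.0 ± 1.35 and 16.8 ± 2.58 FPKM (SD, n = 3). Without 1 mg/kg sample 1, the in-between library, the difference at 1 mg/kg was 0.37 (limma adjusted p = 0.0111).

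Slc12a2, the gene of NKCC1, which carries sodium, potassium and chloride into the cell, had the lowest level of the tested members. It was at 4.59, 5.11 and 5.43 FPKM with vehicle, at 2.64, 2.67 and 2.11 FPKM at 0.1 mg/kg and at 2.06, 2.66 and 2.52 FPKM at 1 mg/kg. All digoxin samples lay below all vehicle samples, and the digoxin groups overlapped. The means were 5.04 ± 0.425, 2.47 ± 0.319 and 2.41 ± 0.310 FPKM (SD, n = 3), 49.0% and 47.8% of vehicle. Slc12a2 fell by 0.80 (SE 0.11, limma adjusted p = 0.00160) and by 0.83 (SE 0.11, limma adjusted p = 0.00117), and both calls held with any 1 library left out. Without both in-between libraries the falls were 0.84 and 0.75.

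Slc8a1 encodes the sodium-calcium exchanger NCX1, through which a rise in cell sodium raises calcium in heart muscle. It stayed under 1 FPKM in every sample and was therefore not among the tested genes. Its level was 0.359, 0.447 and 0.439 FPKM with vehicle, 0.629, 0.385 and 0.493 FPKM at 0.1 mg/kg and 0.322, 0.300 and 0.270 FPKM at 1 mg/kg, from 207 to 510 recovered reads a sample. The 1 mg/kg samples lay below those of both other groups, which overlapped each other. In a fit without the expression filter Slc8a1 passed in no comparison (limma adjusted p = 0.594 and 0.397 against vehicle, 0.475 between the doses). The log2(FPKM + 1) scale understates changes at this level. With limma-voom on its reads, chosen after seeing the data, Slc8a1 differed from vehicle by 0.25 and -0.48 (limma-voom adjusted p = 0.319 and 0.0994). Between the doses that fit gave -0.73 (limma-voom adjusted p = 0.230). The muscle marker sum was highest, 1156 FPKM, in 1 mg/kg sample 3, where Slc8a1 was lowest. The Slc8a1 values of 1 mg/kg samples 1, 2 and 3 rest on 257, 230 and 207 reads, with counting errors of 6.24%, 6.59% and 6.95%. Whether muscle content bears on Slc8a1 was not tested.

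**Figure D2:**
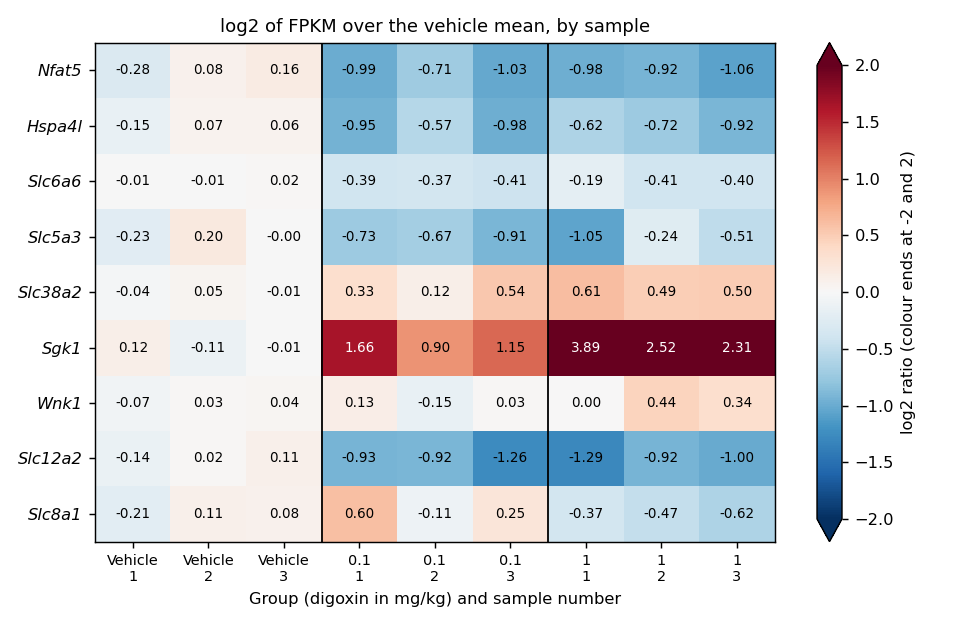
log2 ratio of each gene's FPKM to its vehicle mean (colour and printed value, colour scale ending at -2 and 2) in each of the 9 samples, 3 a group. Nfat5, Hspa4l, Slc6a6, Slc5a3 and Slc12a2 are below the vehicle mean in all 6 digoxin samples. Slc38a2 and Sgk1 are above it in all 6, while Wnk1 and Slc8a1 have values on both sides.

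Between the doses, which asks whether the higher dose gave another level than the lower, 0 of the 8 tested members passed in limma, and 0.0146% of all tested genes did (2 genes, both lower at 1 mg/kg). With limma-voom on recovered reads, chosen after seeing the data, 0 members passed at the adjusted threshold too. Sgk1 was the member with the largest difference, 1.64 (SE 0.37, 95% interval 0.79 to 2.48, limma adjusted p = 0.131), and the only one whose 3 samples at 1 mg/kg did not overlap the 3 at 0.1 mg/kg, which 17% of tested genes also showed. The ratio of the means was 3.53, and 2.21 without 1 mg/kg sample 1. Without that library the difference was 1.15 (limma adjusted p = 0.0799), and without both in-between libraries it was 0.98 and passed (limma adjusted p = 0.0223). For Nfat5 the difference was -0.069 (95% interval -0.35 to 0.21), for Slc12a2 -0.026 (-0.28 to 0.23), for Hspa4l 0.063 (-0.21 to 0.33) and for Slc6a6 0.057 (-0.11 to 0.22). Slc5a3 (0.15, -0.24 to 0.55), Slc38a2 (0.20, -0.035 to 0.44) and Wnk1 (0.24, -0.023 to 0.51) had wider room for a higher level at 1 mg/kg. These intervals limit how far the doses differ and do not show that they act alike.

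**Figure D3:**
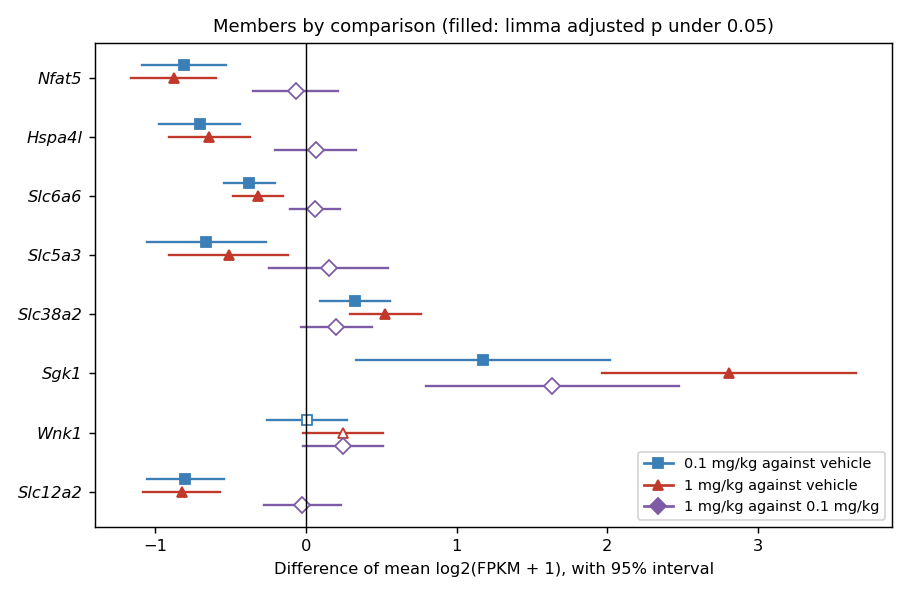
Difference of mean log2(FPKM + 1) with its 95% interval (horizontal axis) for the 8 tested members in the 3 comparisons; filled symbols passed a limma adjusted p of 0.05. For the 5 members that fell the symbols of both doses lie close together, for Sgk1 those of 0.1 and 1 mg/kg stand at 1.17 and 2.81, and no symbol of the comparison between doses is filled.

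The order of the levels changed with treatment. In vehicle tumours Slc38a2 stood first, followed by Slc6a6, then by Wnk1, Nfat5 and Sgk1, whose samples overlapped from neighbour to neighbour, then by Slc5a3 and Hspa4l, which also overlapped, and by Slc12a2 and Slc8a1. At 0.1 mg/kg Sgk1 was second, above Slc6a6 without overlap. At 1 mg/kg Sgk1 had the highest mean but its samples overlapped those of Slc38a2, and Nfat5, Slc5a3 and Hspa4l overlapped from neighbour to neighbour. These ranks compare levels per gene length.

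Over all tested genes 42.2% and 45.9% passed at the 2 doses. The list counts with all libraries in this and the following paragraphs are to be read beside these shares. Without both in-between libraries 8424 and 8392 of the 13687 tested genes passed, and list counts from that fit are to be read beside these. Among genes around the osmolyte carriers, the list of other carriers had 6 genes outside the members, of which 1 was tested. Slc6a8, the creatine carrier, was at 19.9 ± 0.367, 16.3 ± 2.89 and 21.2 ± 6.36 FPKM and passed at neither dose. It was lower at 0.1 mg/kg when both in-between libraries were left out (-0.38, limma adjusted p = 0.0174). Of 7 tested enzymes that make or convert osmolytes, 1 rose and 2 fell at 0.1 mg/kg, and 2 rose and 2 fell at 1 mg/kg (medians -0.019 and 0.025, against 0.018 and -0.037 over all tested genes), and 2 and 2, then 3 and 2, without both in-between libraries. Isyna1, which makes the inositol ring, rose from 13.0 ± 0.455 to 31.4 ± 9.75 and 25.5 ± 6.89 FPKM (log2 1.17 and 0.89, limma adjusted p = 0.00622 and 0.0162, the second lost in 3 of 9 fits with 1 library left out). Impa1, which frees inositol from its phosphate, fell from 10.5 ± 0.286 to 8.20 ± 1.07 and 7.75 ± 0.0568 FPKM, with the 0.1 mg/kg call lost in 5 such fits. Aldh7a1, an aldehyde dehydrogenase that makes betaine, fell by 0.71 and by 0.97. Akr1b1, the sorbitol-making aldose reductase and a classical NFAT5 target, differed from vehicle by 0.030 at 0.1 mg/kg (limma adjusted p = 0.780) and by 0.025 at 1 mg/kg (0.810).

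Of 7 tested genes described as NFAT5 targets outside the members, 3 rose and 0 fell at 0.1 mg/kg, and 5 rose and 0 fell at 1 mg/kg, with medians of 0.19 and 2.07 (6 rose at 1 mg/kg without both in-between libraries), while Nfat5, Slc6a6 and Slc5a3 fell. Hspa1b, an inducible HSP70, was at 6.66 ± 2.65, 6.54 ± 3.17 and 34.1 ± 5.16 FPKM and rose at 1 mg/kg (2.25, limma adjusted p = 0.00153). Between the doses its adjusted p was 0.0796 in limma, and 0.0446 without both in-between libraries. Its near-identical neighbour Hspa1a rose by 2.07 at that dose, and how reads were split between the 2 genes is uncertain. Nos2, the inducible nitric oxide synthase, rose from 5.54 ± 2.05 to 34.6 ± 17.7 and 86.1 ± 77.8 FPKM (2.38 and 3.42), Vegfc, a growth factor of lymphatic vessels, from 5.41 ± 0.268 to 13.1 ± 4.16 and 15.1 ± 1.68 FPKM (1.09 and 1.33), and the cytokine gene Tnf by 1.43 and 2.11. Nos2, Tnf and Vegfc also answer to inflammatory signals. In the same groups neutrophil marker sums were 80.8 to 221, 140 to 804 and 513 to 1201 FPKM. Macrophage marker sums were 2620 to 2938, 2688 to 4063 and 1862 to 3008 FPKM. Without both in-between libraries Nos2 rose by 2.56 and 2.73. Whether inflammatory signals or the content of these cells bear on the 3 genes was not tested. Among the calcineurin-controlled relatives of NFAT5 and their feedback genes, 4 of which were tested, 2 rose and 1 fell at 0.1 mg/kg and 1 rose and 1 fell at 1 mg/kg (3 and 1, then 2 and 1, without both in-between libraries). Nfatc3 fell from 8.04 ± 0.544 to 5.01 ± 0.539 and 4.55 ± 0.244 FPKM. Rcan1, a calcineurin inhibitor, rose from 9.48 ± 1.28 to 23.0 ± 5.00 and 20.5 ± 0.458 FPKM (1.18 and 1.05). Nfatc2 was higher at 0.1 mg/kg (0.931 ± 0.0352 and 1.80 ± 0.314 FPKM, log2 0.53), a call lost in 6 of the 9 fits with 1 library left out, and was 1.01 ± 0.460 FPKM at 1 mg/kg. Its vehicle values were at most 0.968 FPKM, so digoxin samples alone brought it past the expression filter of 1 FPKM.

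The close relatives of Hspa4l did not move with it in both cases. Hsph1, another HSP110 chaperone, fell from 27.3 ± 1.15 to 15.0 ± 0.628 FPKM at 0.1 mg/kg (-0.82, limma adjusted p = 0.000259) and to 21.4 ± 0.711 FPKM at 1 mg/kg (-0.34, limma adjusted p = 0.00484). Its values differed by 0.48 between the doses (limma adjusted p = 0.0796, and 0.0121 without both in-between libraries). Hspa4 was at 42.7 ± 0.973, 47.7 ± 3.61 and 53.1 ± 2.59 FPKM and rose at 1 mg/kg (0.31, limma adjusted p = 0.0116). At 0.1 mg/kg it passed only without both in-between libraries (0.20, limma adjusted p = 0.0175).

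Of 8 tested sodium-coupled amino acid carriers beside Slc38a2, 0 rose and 3 fell at 0.1 mg/kg, and 0 rose and 2 fell at 1 mg/kg (0 and 4 without both in-between libraries). Slc38a1 (SNAT1), a close relative, fell from 8.10 ± 0.304 to 3.88 ± 0.538 and 2.93 ± 0.443 FPKM (-0.90 and -1.22, limma adjusted p = 0.00103 and 0.000353), opposite in sign to Slc38a2. Slc1a4, which exchanges small neutral amino acids, fell from 12.6 ± 0.230 to 6.85 ± 2.22 and 6.08 ± 2.28 FPKM, the first of these calls being lost in 5 of 9 fits with 1 library left out. Slc38a4 was at 27.7 ± 3.03, 17.1 ± 6.24 and 18.8 ± 5.19 FPKM and passed at 0.1 mg/kg, where 6 of 9 such fits lost the call, and not at 1 mg/kg (-0.56, limma adjusted p = 0.0947). Without both in-between libraries it fell at 1 mg/kg too (-0.76, limma adjusted p = 0.000995).

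Around Sgk1, 12 genes of its activation, its substrates and its glucocorticoid-induced partners were tested, of which 1 rose and 4 fell at 0.1 mg/kg and 2 rose and 5 fell at 1 mg/kg (medians -0.23 and -0.22). With both in-between libraries left out, 1 rose and 7 fell at 0.1 mg/kg, and 3 rose and 5 fell at 1 mg/kg. Tsc22d3 (GILZ), like Sgk1 a glucocorticoid-induced gene, rose from 12.8 ± 0.641 to 38.5 ± 8.15 and 61.4 ± 24.9 FPKM (1.49 and 2.10, limma adjusted p = 0.00333 and 0.000810). Ndrg1, whose product SGK1 phosphorylates, was at 14.6 ± 1.76, 19.6 ± 4.68 and 55.7 ± 32.0 FPKM and rose at 1 mg/kg (1.73, limma adjusted p = 0.00427). The ubiquitin ligase gene Nedd4 fell from 110 ± 8.13 to 70.0 ± 9.11 and 65.0 ± 4.12 FPKM (-0.65 and -0.75), and Nedd4l, the SGK1 substrate that removes sodium channels from the membrane, fell by 0.45 and by 0.40.

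Of 11 tested genes of the WNK pathway and the SLC12 family beside Wnk1 and Slc12a2, 1 rose and 3 fell at 0.1 mg/kg, and 2 rose and 2 fell at 1 mg/kg. At each dose 4 rose and 4 fell without both in-between libraries, a fit in which 8424 and 8392 of all 13687 tested genes passed. Stk39, the gene of SPAK, fell from 8.01 ± 0.612 to 2.60 ± 2.28 and 1.29 ± 0.915 FPKM (-1.49 and -2.04, limma adjusted p = 0.0179 and 0.00455), the first call being lost in 5 of 9 fits with 1 library left out. Cab39l, an adaptor that activates SPAK, fell from 5.76 ± 0.250 to 4.50 ± 0.492 and 3.59 ± 0.247 FPKM, and its 0.1 mg/kg call was lost in 4 such fits. Cul3, a scaffold of the ligase that degrades WNK kinases, was at 25.4 ± 1.61, 27.9 ± 0.331 and 30.3 ± 0.912 FPKM and rose at 1 mg/kg (0.25), a call lost in 4 such fits.

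Of 7 tested sodium exchangers and bicarbonate cotransporters beside Slc8a1, 3 rose and 1 fell at 0.1 mg/kg (3 and 3 without both in-between libraries), and 2 rose and 2 fell at 1 mg/kg (3 and 2). The sodium-proton exchanger Slc9a5 fell from 18.1 ± 1.25 to 14.1 ± 2.06 and 12.0 ± 0.515 FPKM, with the call at 0.1 mg/kg lost in 4 of 9 fits with 1 library left out, and the endosomal Slc9a9 was at 4.48 ± 0.182, 3.98 ± 0.418 and 2.81 ± 0.701 FPKM and fell at 1 mg/kg. Of 5 tested calcium pumps, 1 rose and 1 fell at each dose (2 and 2, then 2 and 1, without both in-between libraries). Atp2a2, the widely expressed pump of the endoplasmic reticulum, was at 47.9 ± 0.210, 38.5 ± 4.37 and 43.3 ± 2.67 FPKM and passed at 0.1 mg/kg (-0.31, lost in 4 such fits). The plasma membrane pump Atp2b4 passed at 1 mg/kg (-0.38, limma adjusted p = 0.0439, lost in 7 such fits), and at 0.1 mg/kg only without both in-between libraries (-0.29, limma adjusted p = 0.0438). Atp2a1, the pump of fast skeletal muscle, was at 0.979 ± 0.447, 9.25 ± 5.13 and 13.2 ± 13.9 FPKM (2.24 and 2.23, lost in 6 and 7 such fits), beside muscle marker sums of 34.5 to 110, 163 to 337 and 53.7 to 1156 FPKM.

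Of 9 tested genes of swelling-activated channels and aquaporins, 2 rose and 4 fell at 0.1 mg/kg, and 2 rose and 5 fell at 1 mg/kg (2 and 5, then 3 and 5, without both in-between libraries). Lrrc8a, the required subunit of the volume-regulated anion channel, rose from 3.30 ± 0.278 to 5.97 ± 0.294 and 5.00 ± 0.999 FPKM (0.70 and 0.47, the second lost in 4 of 9 fits with 1 library left out), and the partner subunit Lrrc8d rose by 0.53 and 0.63. Another partner, Lrrc8c, fell from 8.21 ± 0.181 to 5.68 ± 0.490 and 5.49 ± 0.452 FPKM. Pacc1, a proton-activated chloride channel, was at 13.6 ± 1.05, 11.5 ± 0.757 and 8.40 ± 1.25 FPKM and fell at 1 mg/kg (-0.64, limma adjusted p = 0.00260). At 0.1 mg/kg it passed only without both in-between libraries (-0.27, limma adjusted p = 0.0233). Of 6 tested subunits of the pump that digoxin inhibits, 2 rose and 1 fell at each dose (4 and 1 without both in-between libraries). The beta-1 subunit Atp1b1 was among those that rose at both doses. Its vehicle values were at most 0.921 FPKM, so digoxin samples alone brought it past the expression filter of 1 FPKM. No gene of these 12 lists outside the members passed between the doses in limma, where 2 of all 13687 tested genes did. Hspa1b and Hsph1 each had a limma adjusted p of 0.0796 in that comparison. With both in-between libraries left out, 465 of all 13687 tested genes passed between the doses. Of the list genes 4 did, 1 each among the NFAT5 targets and the HSP110 chaperones (higher at 1 mg/kg) and among the channels and the pump subunits (lower).

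**Figure D4:**
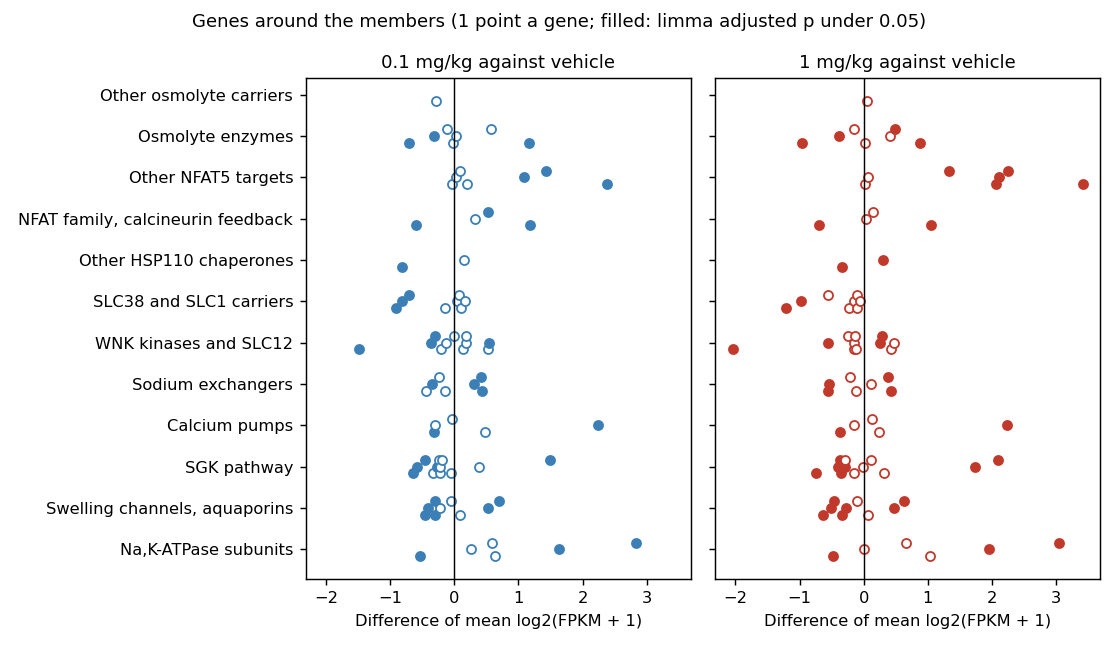
Difference of mean log2(FPKM + 1) from vehicle (horizontal axis) for each tested gene of the 12 lists around the members, 1 point a gene, at 0.1 mg/kg (left) and 1 mg/kg (right); filled points passed a limma adjusted p of 0.05. Points of a list mostly lie on both sides of 0; the called NFAT5 targets lie to the right at both doses, and the called amino acid carriers to the left.

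The genes whose log2 levels followed each member most closely over the 9 samples are given as a description, since all genes share the same libraries and group differences. For Nfat5 they were Tasor2 and Med1 (Pearson r 0.994 each), for Hspa4l Ppfibp1 (0.995) and Plscr1 (0.994), for Slc6a6 Srpr (0.997) and Ddx21 (0.993), and for Slc12a2 Pdpr (0.994) and Atxn1l (0.991). For these 4 members 413, 540, 232 and 280 genes had an r over 0.95. Sgk1 was followed by Klf5 (0.995, with means of 1.94, 4.25 and 10.2 FPKM) and Ppp1r15a (0.993, with 8.83, 26.1 and 76.0 FPKM), and by 83 genes over 0.95. Slc38a2 was followed by Zfpm2 (0.990) and Chka (0.984), Slc5a3 by Arl15 (0.984) and Rbl2 (0.978), and Wnk1 by Snx7 (0.976) and Adcy6 (0.970). These 3 members had 29, 11 and 7 genes over 0.95, fewer than the others.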

How the data were processed

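The deposited table gave FPKM for 35321 genes in 9 samples. Per the submitters' processing notes the authors used fastp 0.22.0 and HISAT2 2.2.1 and named the build GRCh38, a human build, although the genes are mouse genes, so coordinates come only from RefSeq promoters (GRCm38.p6). The read counter and the annotation: not given in the sources used here. Poly(A) RNA was sequenced in read pairs of 150 bases, per the labels' protocols. FPKM are normalised to depth and gene length by the authors, so differences in total RNA are not visible.

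Values were set to log2(FPKM + 1), which understates changes of low genes. The 13687 genes that reached 1 FPKM in 3 or more of the 9 samples were tested two-sided with limma 3.58.1 in R 4.3.3 (mean-variance trend, 1 fit, residual degrees of freedom 6, prior 2.71) and adjusted by Benjamini-Hochberg. The step was tested on simulated data. Whole reads were recovered from the FPKM spacing for 99.95% of tested genes, within 0.03 reads, and counting errors cover reads only. limma-voom on these reads was an alternative added after seeing the data. Python 3.11.15 with pandas 2.3.3, NumPy 2.4.6 and matplotlib 3.10.9 did the rest.

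The members, the lists and the in-between libraries were chosen with earlier results of these data known. Genes named were all members, up to 3 genes per list with the smallest p in either dose against vehicle, the 2 genes most correlated with each member, and Atp1b1. Akr1b1, Hspa1a, Tnf, Nedd4l, Lrrc8d and Mrps6 were named after their values were seen. Alternatives were other pseudocounts, filters, scalings and limma settings, a replicate block and libraries left out. Some genes that the rule named are left out of the text.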

Additional observations from a re-analysis of the deposited data

How the results depend on the processing

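Nfat5, Hspa4l, Slc6a6 and Slc12a2 at both doses, and Sgk1 and Slc38a2 at 1 mg/kg, kept direction and call in every alternative run (22 each; 21 for Slc12a2, which a mean of at least 5 FPKM drops). With 1 library left out, 4 to 7 members and 3414 to 7074 genes were called at 0.1 mg/kg, 6 to 7 members and 4129 to 7373 genes at 1 mg/kg, and 0 members and 0 to 133 genes between the doses. At 1 mg/kg 4159 genes passed with a mean of at least 5 FPKM, where fewer were tested. Between the doses 0 genes passed with pseudocounts of 0.1 or 0.01 or with a fit of the 2 groups only, 10 with no filter, and 1 each with a mean of at least 5 FPKM, equal medians or no trend. Without both in-between libraries 8424, 8392 and 465 genes passed in the 3 comparisons, and 1 member, Sgk1, between the doses. limma-voom, chosen after seeing the data, called 5991, 6302 and 2 genes. Higher and lower calls at 0.1 mg/kg were 2952 and 2829, but 2368 and 3790 with TPM and 2403 and 3552 with quantile normalisation.

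Some calls of Slc38a2, Sgk1 and Slc5a3 were lost outside the cases given above. At 0.1 mg/kg, with no filter the adjusted p of Slc38a2 was 0.0708 and that of Sgk1 0.0848, and with equal medians that of Slc38a2 was 0.0721. At 1 mg/kg that of Slc5a3 was 0.0932 with no filter, 0.0670 in a fit of 2 groups and 0.0611 without both in-between libraries. Differences near 0 changed sign. Wnk1 at 0.1 mg/kg was -0.033 with quantile normalisation, -0.031 with equal medians and -0.11 with TPM, and ran from -0.056 to 0.074 with 1 library left out. Between the doses, with 1 library left out, Nfat5 ran from -0.12 to 0.018, Slc6a6 from -0.011 to 0.093, Slc5a3 from -0.0030 to 0.34 and Slc12a2 from -0.10 to 0.050. Nfat5 was 0.013 and Slc12a2 0.093 with the in-between libraries left out, and Slc12a2 was 0.055 with quantile normalisation and 0.020 with equal medians. The cause was not tested.

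Residuals of same-numbered samples correlated at -0.44 to 0.28, over 0.1 in 3 of 9 pairs, and those of different numbers at -0.48 to 0.52. Between vehicle and 0.1 mg/kg the same-numbered pairs were at 0.19, 0.13 and 0.091, and the other pairs at -0.14 to 0.036. These values do not settle whether samples were paired by number. With the replicate number as a block, 4967, 5541 and 0 genes were called, and among members the 0.1 mg/kg call of Slc38a2 was lost (adjusted p 0.0571).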
